A study of Rattus norvegicus with 2 samples.

Results

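Laminins, collagens and integrins, with the glycoproteins that link them, are the genes described here. A gene was a member when its symbol in the deposited table was that of a laminin chain, a numbered collagen, an integrin subunit, a fibulin, a fibrillin, a nidogen or a thrombospondin, or was Fn1, Agrn, Sparc, Sparcl1, Spock1, Spock2 or Dag1. This gave 97 members of 25628 genes, with 69 encoding secreted matrix proteins, 23 integrin subunits, 4 collagens that stay in the membrane, and 1 the matrix receptor dystroglycan. Hspg2, which the rule also names, was not analysed here. The rule uses no measured value.

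RIP-seq reads the RNA that comes down with a tagged protein. From rat primary cortical neurons RNA was sequenced after streptavidin pull-down of P180 (RRBP1), a ribosome receptor of the endoplasmic reticulum (ER), fused to GFP and a tag that is biotinylated (P180-GFPbio), or of the biotinylated GFP alone (GFPbio). The comparison asks which mRNAs are held by P180 rather than by the tag and the beads. 1 library of each was analysed, here called the P180 and the GFP pull-down, so no difference has a replicate check, no p-value is given, and every statement compares these libraries. GFP and the biotin tag were thus common to both. Whether the constructs and the enzyme that biotinylates them were expressed in the cortical neurons, and how long these were cultured, is not given in the sources used here. The paper describes their expression in human HEK293T cells. For rat brain extract, it loaded beads from such cells, washed them and then added the extract. For RNA it names the same procedure with a few changes, without stating which route was taken.

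Matrix proteins and integrins are made on ribosomes at the ER. Laminins are assembled there from an alpha, a beta and a gamma chain, and collagens from 3 chains wound around each other, before they leave the cell. Integrins pair an alpha with a beta subunit, span the plasma membrane, and tie matrix outside to the actin cytoskeleton inside through adaptors such as talin. In the brain, laminins, collagen IV, nidogens and agrin form the sheets under the pia and around vessels, and astrocytes secrete thrombospondins, SPARC and the SPARC-like protein hevin, which act on synapses. In human fibroblasts P180 has been linked to the synthesis of procollagen.

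The P180 pull-down held 6298343 counts and the GFP pull-down 8428358, over 13407 and 9345 genes. The GFP pull-down thus had more counts over fewer genes. The median count of a gene with any count was 81 with P180 and 239 with GFP, and mitochondrial genes held 7.31% and 16.6% of counts. How far this shaped ratios with few or no counts in 1 library was not tested. Counts were divided by size factors of 0.846 and 1.18 and are then called scaled counts, and a ratio is always that of scaled counts, P180 over GFP. A gene was measured when both libraries together held at least 10 counts. Where a pull-down had no count, 3 counts were taken as its floor, equal to 0.476 CPM (counts relative to a library total of 1000000) in the P180 pull-down and 0.356 CPM in the GFP pull-down, and a ratio against it is given with the lower limit of its counting interval, which lies somewhat below. Intervals are exact 95% intervals and cover the error of counting alone, and amplified copies of 1 molecule are not independent. Rrbp1 itself had 2541 counts with P180 and 1334 with GFP, a ratio of 2.66, and the tag row had 63981 and 190058. The 10 neuronal markers summed to 5304 CPM in the P180 pull-down and 5504 CPM in the GFP pull-down, so neuronal mRNA was present in both. Most of these counts were Tubb3 and Stmn2. Nefm was at least 2-fold higher with P180, Snap25 at least 2-fold lower, and the other markers lay between. Of the astrocyte markers, 7 of 8 measured were at least 2-fold higher with P180 (3948 against 1004 CPM in sum, most of it Slc1a3). So were 8 of 8 markers of dividing cells (116 against 8.31 CPM), where 40.6% of all measured genes were. Higher by construction, without a count with GFP, were 2 of these 8 astrocyte and 5 of the 8 dividing-cell markers. The part of these cells in the results below was not tested.

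Most of the measured matrix and integrin mRNAs were higher after P180 pull-down. Of the 97 members, 28 had no count in either pull-down, 16 more stayed under 10 counts and 53 were measured, where 44.7% of all genes were. Of these, 39 were at least 2-fold higher with P180, 9 were at least 2-fold lower and 5 lay between. The background was high, because 40.6% of all 11468 measured genes were at least 2-fold higher and 19.9% at least 2-fold lower. A gene at 0 in the GFP pull-down with 10 or more counts in the P180 pull-down is at least 2-fold higher by construction, and 19 of the 53 were of this kind, against 20.4% of all measured genes. With the whole counting interval past 2-fold, 34 members were higher (36.2% of all genes) and 7 lower (14.7%), and 31 were at least 4-fold higher (30.1%). No count in the P180 pull-down was found for 3 members, against 1.05% of all genes. The counts above are a description, since such genes had to differ.

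Well-counted members stood further from the background. Of the genes that averaged 100 or more scaled counts over both pull-downs, called well-counted here, 16 of 22 members were at least 2-fold higher (72.7%, 95% exact binomial interval over genes 49.8 to 89.3), where 22.8% of all 6693 such genes were, and 2 were lower, where 22.6% of all were. After 1 was added to each scaled count, the median of the log2 ratios was 1.80 for these members and -0.03 for all such genes. A mean of 100 can be reached through 1 pull-down alone, as for Lamb2 and Col3a1. With counts in both also required, 15 of 20 members were higher (75.0%), where 21.5% of all 6578 such genes were, and 1 was lower, where 22.9% were. Below that mean, 23 of 31 members were higher (74.2%), where 65.5% of all 4775 such genes were, and 18 of the 31 were not counted with GFP, where 46.8% of all had none. In all, 0.575% of all counts with P180 and 0.229% with GFP fell on members. In bulk pull-downs, fewer cells of a type, less RNA per cell and less RNA held by the bait cannot be told apart.

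**Figure D1:**
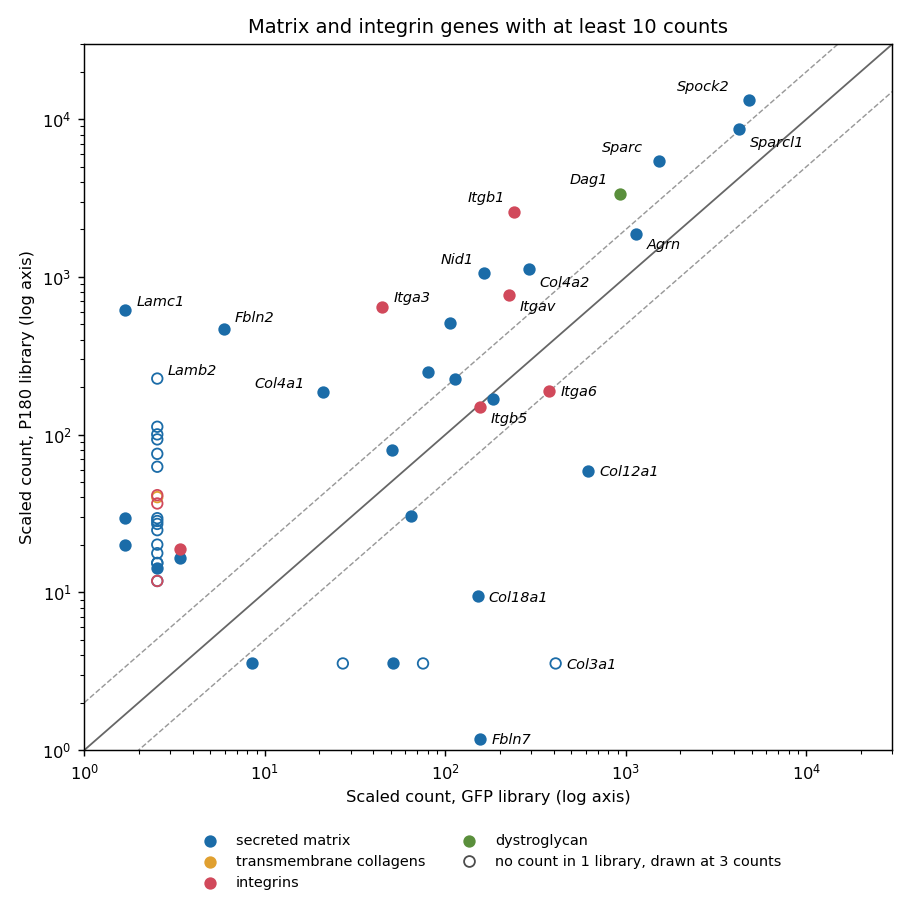
Scaled counts of the 53 measured members in the GFP pull-down (x axis) and the P180 pull-down (y axis), both on log axes, with 1 point per gene coloured by class and open points for genes without a count in 1 library, drawn at the floor of 3 counts. The solid line marks equal scaled counts and the dashed lines a 2-fold difference; 39 genes lie above the upper dashed line and 9 below the lower one, among them Col3a1 and Col12a1.

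The laminin chains had the highest summed ratio of the roles counted in both pull-downs. Together they had 1006 counts with P180 and 107 with GFP, 160 against 12.7 CPM and a ratio of 13.1 (10.8 to 16.2). Of the 11 chains, 6 were measured, and 5 of them were at least 2-fold higher, 3 of these without a count in the GFP pull-down and so by construction. Lamc1 (ENSRNOG00000002680), the gamma1 chain found in most laminins, had 526 counts with P180 and 2 with GFP, a log2 ratio of 8.52 (6.66 to 11.57). Lamb2, the beta2 chain, had 192 counts and none, which makes it at least 89.4-fold higher against the floor, with a lower counting limit of 72.0. Lamb1, the beta1 chain, was present in both libraries with 211 and 95 counts and a much smaller log2 ratio of 1.63 (1.28 to 2.00). The beta chains that can pair with gamma1 thus differed in the GFP pull-down, where Lamb1 was counted and Lamb2 was not.

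The alpha chains, which carry the main integrin-binding domains of laminins, were scarce. Lama5 had 53 counts with P180 and none with GFP, and Lama4 had 13 and none. Against the floor they were at least 24.7-fold and 6.05-fold higher, with lower counting limits of 19.4 and 4.26. Lama2, the alpha chain that binds dystroglycan in muscle and glia, had 3 and 10 counts, and its log2 ratio of -1.25 had an interval of -3.75 to 0.70, so its direction could not be read at this depth. Lamb3 had 8 counts and none, and Lama1, Lama3 and Lamc3 had no count in either pull-down. A count of 0 was read as anything up to the floor of 3 counts.

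Collagen IV was higher, while the other collagens were split. Summed over the 40 secreted collagens of the table, the P180 pull-down held 1644 counts and the GFP pull-down 2248, or 261 and 267 CPM. The ratio of scaled counts was 1.02 (0.958 to 1.09), and it was 0.979 (0.918 to 1.04) when total counts were used for scaling. With total counts that leave out mitochondrial genes and the tag row it was 0.867 (0.813 to 0.924), so the direction for secreted collagens as a whole depended on the scaling. By gene, 12 of the 20 measured were at least 2-fold higher and 7 lower, where 40.6% and 19.9% of all measured genes were. For the secreted matrix genes other than collagens, it was 18 of 22 higher and 2 lower. Their summed counts were 27953 with P180 and 14692 with GFP, a ratio of 2.66 (2.61 to 2.71). The side was set by construction for 6 of the 20 and 9 of the 22 without a count with GFP, and for 3 collagens with none with P180. With counts in both pull-downs, 6 of 11 collagens and 9 of 13 others were higher and 4 and 2 lower. Of all such genes 25.6% were higher and 24.0% lower.

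Col4a1 and Col4a2, the chains of the collagen IV found in nearly every basement membrane, made up most of the collagen counts of the P180 pull-down (67.2%). The GFP pull-down drew 54.1% of its collagen counts from Col3a1 and Col12a1 instead. Col4a1 (ENSRNOG00000016281) had 158 counts with P180 and 25 with GFP, a log2 ratio of 3.14 (2.53 to 3.81). Col4a2 (ENSRNOG00000023972) had 947 and 342 counts, a log2 ratio of 1.95 (1.77 to 2.13). Both were higher in the P180 pull-down, and their counting intervals did not overlap, with the larger ratio for the chain with fewer counts. The genes lie head to head on rat chromosome 16 and are read in opposite directions from start sites 77 bases apart, so that 176 bases are common to both promoter windows. The windows below, from 250 bases before to 50 after each RefSeq start site in GRCr8, are shown because no other measured members were found with overlapping windows. Each reads from 5′ to 3′ on the strand of its gene, and capitals mark the 176 common bases, which appear in the other window as the reverse complement. Col4a1 spans chr16:84885347-84885646 on the plus strand and Col4a2 chr16:84885471-84885770 on the minus strand.
Col4a1: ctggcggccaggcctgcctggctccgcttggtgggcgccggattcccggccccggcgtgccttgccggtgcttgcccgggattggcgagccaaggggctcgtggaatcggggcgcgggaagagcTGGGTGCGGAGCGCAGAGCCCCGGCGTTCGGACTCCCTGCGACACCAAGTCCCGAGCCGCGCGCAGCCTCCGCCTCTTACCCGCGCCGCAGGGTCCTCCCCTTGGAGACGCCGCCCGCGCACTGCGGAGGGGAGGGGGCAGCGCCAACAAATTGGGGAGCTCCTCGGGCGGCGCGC
Col4a2: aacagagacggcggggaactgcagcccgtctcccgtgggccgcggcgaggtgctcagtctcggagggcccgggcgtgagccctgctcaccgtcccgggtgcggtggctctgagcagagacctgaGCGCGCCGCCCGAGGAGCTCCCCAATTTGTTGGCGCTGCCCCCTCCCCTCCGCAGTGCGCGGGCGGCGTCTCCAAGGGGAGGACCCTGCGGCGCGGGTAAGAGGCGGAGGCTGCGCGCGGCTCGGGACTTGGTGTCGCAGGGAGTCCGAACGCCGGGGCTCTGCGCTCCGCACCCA

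The common stretch held 2 matches to the GC box GGGCGG and 1 to CCAAT, and neither window held TATAAA, with both strands searched. Among all 33469 promoter windows of the same length, 33.1% held GGGCGG, 37.5% CCAAT and 14.2% TATAAA. These are matches of letters and were not tied to the pull-down. RefSeq windows were matched for 75 of the 97 members. The other collagen IV genes have the same head-to-head arrangement, with start sites 413 bases apart for Col4a3 and Col4a4 and 1415 bases apart for Col4a5 and Col4a6. Of these, Col4a5 had 13 counts with P180 and none with GFP, and Col4a3, Col4a4 and Col4a6 had no count in either.

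Among the fibril-forming collagens the direction depended on the gene. Col3a1, the type III chain of loose connective tissue, had no count with P180 and 483 with GFP, at least 115-fold lower against the floor with a counting limit of 93.4. Col5a2, a chain of the type V collagen that starts fibrils, showed the reverse, at 85 counts with P180 and none with GFP (at least 39.6-fold higher, lower counting limit 31.5). Col5a1, its partner chain, had 23 and none, and Col11a2 had 21 and none. The third type V chain, Col5a3, had 142 and 216 counts. Its log2 ratio of -0.12 (-0.44 to 0.19) did not differ from equal scaled counts beyond counting error. With total counts that leave out mitochondrial genes and the tag row it was -0.36 (-0.68 to -0.05), so this depended on the scaling. Col11a1 had 26 and 76 counts and a log2 ratio of -1.07 (-1.77 to -0.41). The type I chains Col1a1 and Col1a2, the main product of fibroblasts, had 7 and 8 counts with P180 and none with GFP, under the minimum.

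The fibril-associated collagens, which coat fibrils without forming them, had summed counts at least 2-fold lower under every scaling tried. The fibrillar collagens had a summed ratio of 0.564 (0.493 to 0.644), which passed 2-fold only with total counts that leave out mitochondrial genes and the tag row (0.479). Col3a1 supplied 483 of their 775 counts with GFP and none of their 313 with P180. The fibril-associated genes had 120 counts with P180 and 833 with GFP, a ratio of 0.201 (0.165 to 0.244). Of these, 50 and 734 were Col12a1, with a log2 ratio of -3.39 (-3.84 to -2.98). Each sum thus rested largely on a single gene and does not describe its role as a whole. Col9a3 had 3 and 61 counts (-3.86, -6.18 to -2.25) and Col22a1 none and 32. In the same role Col16a1 (25 counts and none), Col14a1 (17 and 2) and Col9a1 (14 and 4) were higher in the P180 pull-down, so 3 members stood on each side. Without Col3a1 and Col12a1, the secreted collagens had a summed ratio of 2.16 (2.00 to 2.34), and without Col4a1 and Col4a2 one of 0.4003 (0.363 to 0.441). The sum thus depended on both pairs of genes, which were chosen after their values were seen.

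Col18a1, the basement membrane collagen that is cleaved to endostatin, differed from collagen IV, at 8 counts with P180 and 179 with GFP and a log2 ratio of -4.00 (-5.24 to -2.99). Of the type VI chains, which form beaded filaments, Col6a3 had 24 counts and none, and Col6a4 none and 89. Col26a1 had 25 and 2 counts, a log2 ratio of 4.13 (2.12 to 7.25), and Col28a1 12 and 3. The collagens that keep a membrane anchor were nearly absent. Col25a1, a neuronal transmembrane collagen, had 34 counts with P180 and none with GFP, at least 15.8-fold higher with a lower counting limit of 12.2. Col23a1 had 2 and none, and Col13a1 and Col17a1 had no count.

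**Figure D2:**
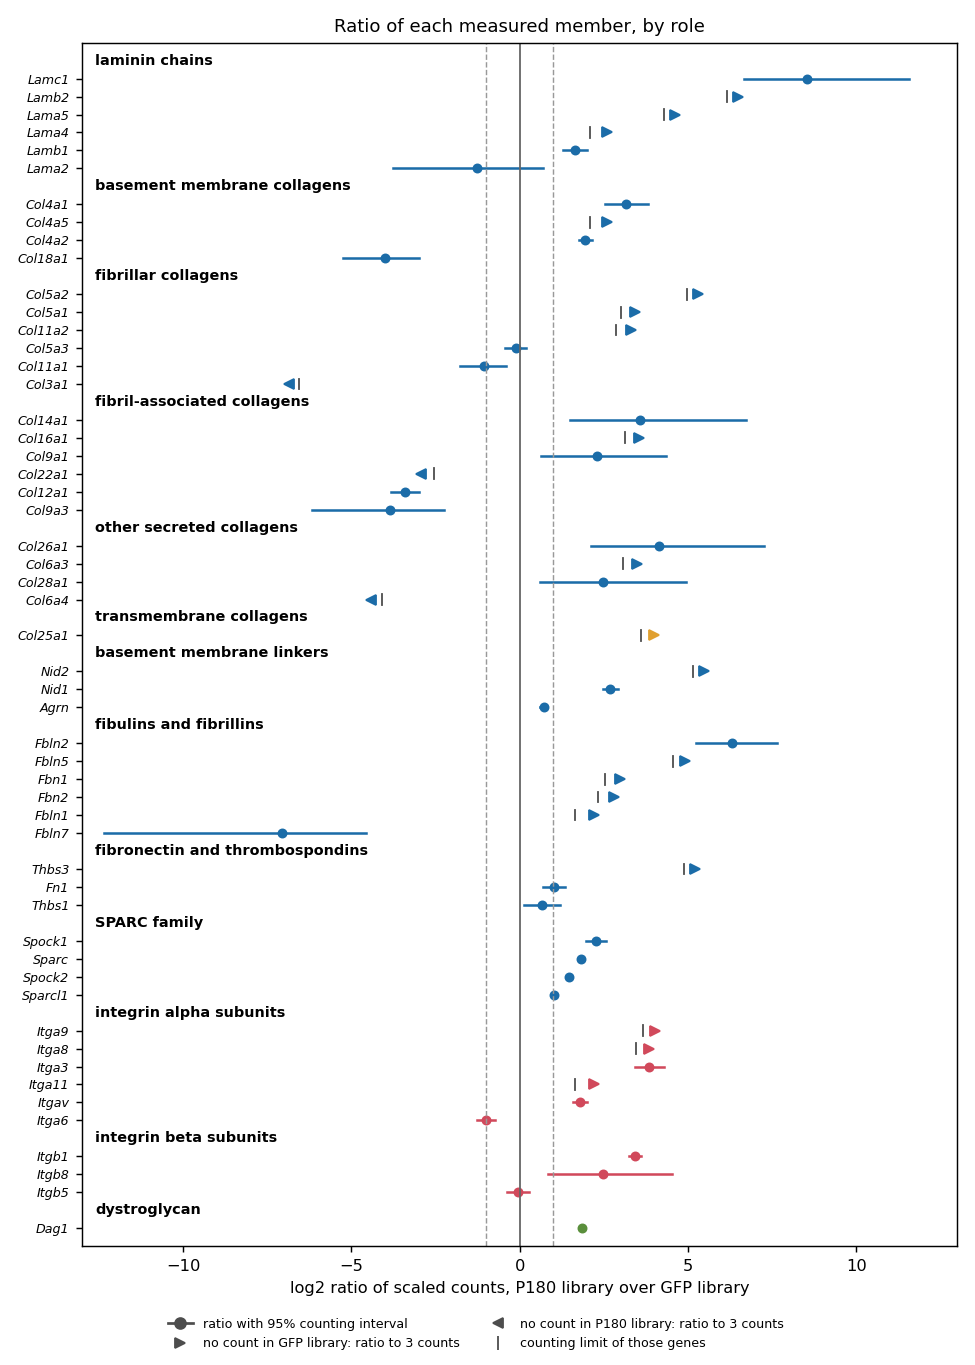
Log2 ratio of scaled counts, P180 pull-down over GFP pull-down, of the 53 measured members, grouped by role and ordered within it, with exact 95% counting intervals as lines. Triangles are genes without a count in 1 library, set against the floor of 3 counts, with a tick at their counting limit. Laminin chains, fibulins and SPARC family genes lie mostly to the right, and Col3a1, Col6a4, Col9a3, Col12a1, Col18a1, Col22a1 and Fbln7 lie at -2.93 or below.

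Among the mRNAs of proteins that tie laminin and collagen IV sheets together, both nidogens were at least 2-fold higher and agrin was not. Nid1, nidogen 1, which bridges laminin gamma1 and collagen IV, had 892 counts with P180 and 193 with GFP, a log2 ratio of 2.69 (2.46 to 2.92). Nid2, its paralog, had 95 and none (at least 44.2-fold higher, lower counting limit 35.3). Agrn, the heparan sulfate proteoglycan agrin, also made by neurons and best known for clustering acetylcholine receptors at the neuromuscular junction, had 1575 and 1347 counts. Its log2 ratio of 0.71 (0.60 to 0.81) was above 0 and stayed under 2-fold, the smallest positive ratio among well-counted secreted matrix genes.

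Fibulins and fibrillins are proteins of elastic fibres and microfibrils. All 6 were measured, with 5 at least 2-fold higher, but 4 of these had no count with GFP and so were higher by construction. Of the other two, 1 was higher and 1 lower. Fbln2 had 396 counts with P180 and 7 with GFP, a log2 ratio of 6.30 (5.25 to 7.63). Fbln5 had 64 counts and none, Fbln1 10 and none, Fbn1 17 and none and Fbn2 15 and none. The exception was Fbln7, with 1 and 185 counts and a log2 ratio of -7.05 (-12.36 to -4.55). Fbln2 and Fbln7, of 1 family, thus had opposite directions.

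Fibronectin and the thrombospondins were close to the 2-fold line or at 0 in the GFP pull-down. Fn1, fibronectin, had 192 and 133 counts, a log2 ratio of 1.01 (0.69 to 1.34), and its place just above the line depended on the scaling, since it lay below 2-fold with TMM factors and with total counts. Thbs1, the thrombospondin that astrocytes release to promote synapses, had 68 and 60 counts and a log2 ratio of 0.66 (0.14 to 1.19). Thbs3 had 79 counts with P180 and none with GFP, at least 36.8-fold higher with a lower counting limit of 29.2. Thbs2 and Thbs4 stayed under 10 counts, with 3 and 5 for Thbs2 and 9 and none for Thbs4.

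The SPARC family supplied most of the counts, 65.0% of those of all members in the P180 pull-down and 65.7% in the GFP pull-down, and all 4 genes were at least 2-fold higher. Spock2 (ENSRNOG00000061544), the brain proteoglycan testican 2, had 11136 counts with P180 and 5683 with GFP, 13162 and 4808 after scaling, with a log2 ratio of 1.45 (1.41 to 1.50). Sparc, which binds collagen and is made by glia and vessel cells, had 4605 and 1812 counts and a log2 ratio of 1.83 (1.75 to 1.91). Spock1, testican 1, had 433 and 126 counts and a log2 ratio of 2.26 (1.97 to 2.56). Sparcl1, hevin, had 7357 and 5034 counts and the lowest log2 ratio of the family, 1.03 (0.98 to 1.08), which fell below 2-fold with total counts. Spock1, the member with the fewest counts, thus had the largest ratio of the family. Outside it, the remaining secreted matrix genes had 6066 counts with P180 and 4285 with GFP, a ratio of 1.98 (1.90 to 2.06).

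Integrin mRNAs were carried by few genes. Of the 23 subunits 11 had no count in either pull-down, among them Itgal, Itgam, Itgax and Itgb2, which mark leukocytes and microglia, and 9 were measured. Of the 9, 7 were at least 2-fold higher with P180 and none at least 2-fold lower, where 40.6% and 19.9% of all measured genes were. Of the 7, 3 had no count with GFP and so were higher by construction. Integrin counts summed to 3770 in the P180 pull-down and 1237 in the GFP pull-down, 599 and 147 CPM, a ratio of 4.26 (3.99 to 4.54). Itgb1 (ENSRNOG00000010966), the beta1 subunit shared by the receptors for laminin, collagen and fibronectin, had 2172 counts with P180 and 285 with GFP. Its log2 ratio of 3.41 (3.23 to 3.60) and its 57.6% of the integrin counts in the P180 pull-down, against 23.0% in the GFP pull-down, carried much of the sum. Without Itgb1 the summed ratio was 2.35 (2.16 to 2.54).

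The alpha partners of beta1 did not share a direction. Itga3, whose product pairs with beta1 to bind laminins, had 545 counts with P180 and 53 with GFP, a log2 ratio of 3.84 (3.44 to 4.28). Itga6, the other common laminin-binding alpha subunit, was lower, with 161 and 446 counts and a log2 ratio of -0.99 (-1.26 to -0.72). It lay just short of the 2-fold line and passed it with TMM factors and with total counts. Itgav, the alpha subunit of the vitronectin receptors, had 655 and 266 counts and a log2 ratio of 1.78 (1.57 to 1.99). Of its beta partners, Itgb5 had 127 and 183 counts and a log2 ratio of -0.04 (-0.38 to 0.29), below that of Itgav beyond counting error. Itgb8 had 16 and 4 counts, and its interval (2.48, 0.85 to 4.52) holds that of Itgav. Itgb3 and Itgb6 had no count. Itga9 (35 counts and none), Itga8 (31 and none) and Itga11 (10 and none) were counted only after P180 pull-down, at least 16.3-fold, 14.4-fold and 4.66-fold higher against the floor, with lower counting limits of 12.6, 11.1 and 3.13. Itga5, Itga7 and Itgb4 stayed under 10 counts, and Itga1, Itga2, Itga4 and Itga10 had none.

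Dag1, which encodes dystroglycan, a receptor for laminin, agrin and neurexin, had 2821 counts with P180 and 1094 with GFP. Its log2 ratio was 1.85 (1.75 to 1.95), or 3.60-fold, close to the ratio of Itgav and of Sparc.

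Secreted matrix and integrins were set side by side. At least 2-fold higher were 30 of 42 measured secreted matrix genes (71.4%, 55.4 to 84.3) and 7 of 9 integrin genes (77.8%, 40.0 to 97.2), where 40.6% of all measured genes were. These intervals are over genes and were not used to compare the classes. No count with GFP, and so the higher side by construction, was found for 15 of the 42 and 3 of the 9. The median of the log2 ratios, with 1 added as above, was 2.47 for the secreted genes and 3.41 for the integrins, beside 0.45 for all measured genes. Among well-counted genes the order of the shares turned, with 12 of 16 secreted genes (75.0%) against 3 of 5 integrins (60.0%). Of all such genes 22.8% were higher. The medians of these secreted genes and integrins were 1.72 and 1.78. Genes are not replicates and each group had 1 library, so no difference between the classes could be tested. On the lower side were 9 of 42 secreted genes (21.4%, where 19.9% of all measured genes were), 7 of them collagens, and none of 9 integrins. With TMM factors or total counts 1 integrin, Itga6, joined that side, and the difference between the classes there was not tested.

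**Figure D3:**
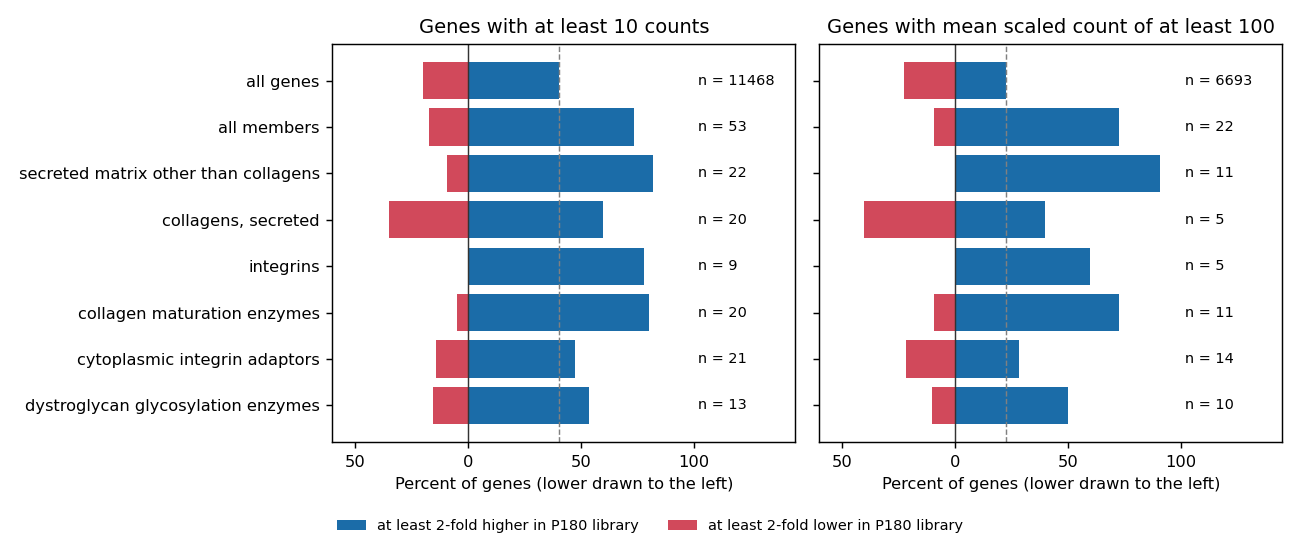
Percent of genes at least 2-fold higher (blue, right) and at least 2-fold lower (red, left) in the P180 pull-down, for all genes, the members and related lists, among genes with at least 10 counts (left panel) and among well-counted genes (right panel). The dashed line is the share of all genes that were higher, 40.6% on the left and 22.8% on the right, and n is the number of genes measured; secreted collagens have the largest share on the lower side in both panels, 35.0% and 40.0%.

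**Figure D4:**
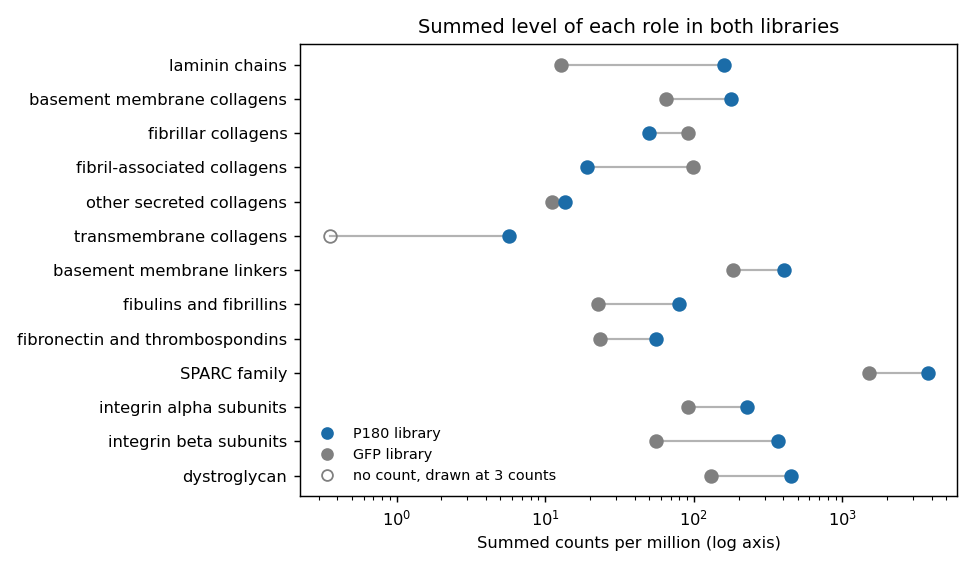
Summed CPM of each role in the P180 pull-down (blue) and the GFP pull-down (grey) on a log axis, with an open point at 3 counts for the transmembrane collagens, which had no count in the GFP pull-down. The SPARC family is highest in both, with 3736 and 1501 CPM, and the fibrillar and fibril-associated collagens are the roles with the lower sum in the P180 pull-down.

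The mRNAs of proteins that fold, modify, load or cross-link collagen chains were mostly higher too. Of the 26 such genes, 20 were measured, and 16 were at least 2-fold higher and 1 lower, where 40.6% and 19.9% of all measured genes were. Of the 20, 8 had no count with GFP and so were higher by construction. Of the 11 well-counted ones 8 were higher (72.7%, where 22.8% of all such genes were). Serpinh1, the collagen chaperone Hsp47, had 2780 counts with P180 and 1514 with GFP (log2 ratio 1.36, 1.27 to 1.45). P4hb, the beta subunit of prolyl 4-hydroxylase, also a disulfide isomerase, had 1380 and 571 (1.76, 1.61 to 1.90). Mia3, which helps load procollagen into vesicles, had 1792 and 1449 (0.79, 0.69 to 0.89), and P3h3, of the prolyl 3-hydroxylase family, 978 and 1806 (-0.40, -0.52 to -0.29). Loxl2, which cross-links collagen outside the cell, was the 1 lower gene, with 2 and 312 counts.

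The mRNAs of cytoplasmic integrin adaptors stood nearer the background than those of the integrins did. Of 21 measured, 10 were at least 2-fold higher and 3 lower (47.6% and 14.3%, where 40.6% and 19.9% of all measured genes were), and of the 14 well-counted ones 4 were higher (28.6%, where 22.8% of all genes were) and 3 lower. Their most abundant member Actn4, an actinin, had 1423 and 2318 counts (log2 ratio -0.22, -0.32 to -0.13), the actin cross-linker Flna 591 and 2533 (-1.62, -1.75 to -1.49), and Actn1 274 and 739 (-0.95, -1.15 to -0.75). Ptk2, focal adhesion kinase, was higher, with 413 and 220 counts (1.39, 1.15 to 1.63). The difference between adaptors and integrins was not tested. Among the enzymes that build the laminin-binding glycan of dystroglycan, 7 of 13 measured were at least 2-fold higher and 2 lower, 53.8% and 15.4% beside 40.6% and 19.9% of all measured genes. The interval of the higher share over genes, which are not replicates, was 25.1 to 80.8, and the share was not tested against that of all genes. B4gat1 had a log2 ratio of 1.35 (1.22 to 1.48), Pomk of 1.30 (1.13 to 1.46) and Pomgnt2 of 2.88 (2.62 to 3.15).

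Markers of vessel cells, fibroblasts and microglia were low in both libraries. Of 9 endothelial markers in the table, Pecam1 alone reached 10 counts (50 with P180 and none with GFP), Cdh5, Kdr, Flt1, Tek, Tie1 and Erg had no count, and the list summed to 9.69 CPM in the P180 pull-down and none in the GFP pull-down. The 8 mural cell (vessel wall) markers summed to 12.5 and 13.4 CPM, with 3 of 4 measured higher, 1 lower, and Acta2, Myh11 and Kcnj8 without a count. The 9 fibroblast markers summed to 37.0 and 14.1 CPM, with 3 of 4 measured higher and Lum, Dpt, Foxc1 and Foxd1 without a count. The 8 microglial markers summed to 13.7 CPM in the P180 pull-down, with no count in the GFP pull-down. Higher levels were seen for the oligodendrocyte lineage, whose 8 markers summed to 628 and 283 CPM, with 5 of 7 measured higher and 1 lower. Beside these counts, 40.6% of all measured genes were higher and 19.9% lower. Without a count with GFP, and so higher by construction, were 3 of the 4 mural, 2 of the 4 fibroblast and 2 of the 7 oligodendrocyte markers. The part of any of these cells in the ratios above was not tested.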

How the data were processed

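The 2 libraries were prepared by an adapted CEL-Seq2 protocol, which counts the ends of mRNAs. The authors aligned reads to mRatBN7 and counted them with STARSolo 2.7.10a, which the submitters' processing notes also name, left out reads with more than 1 best place, and deposited the unnormalized count of each gene. Neither the annotation release nor a collapsing of amplified copies is given in the sources used here. Without collapsing, counting intervals are too narrow. The study's own test, DESeq2 over replicates, was not repeated. 2 further count columns, whose names end in 2 as those of a second replicate would, match no sample as given here and were not used, so 1 library per group remained. Spike-in rows (92, with 2 and 9 counts) were left out.

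Size factors are medians of ratios over the genes counted in both libraries, of the 11468 with at least 10 counts. Ratio intervals are exact (Clopper-Pearson, 95%) and come from the division of a gene's counts between libraries, and shares of genes have exact binomial intervals, in which genes are not replicates. Values are printed for every measured member averaging 100 or more scaled counts, for the 2 highest of each role, for genes at 0 in the GFP library with at least 100 counts, and for the 4 highest of each related list, except that some genes are not reported here. Other members, markers and further genes of the lists were named where a count refers to them, after their values were seen. The members and lists were chosen with earlier results of these data known. Alternatives were TMM factors, total counts (also without mitochondrial genes and the tag row), size factors without the tag row, stricter and looser count filters, thinning of the GFP library, a floor of 1, a 4-fold threshold, 5 scaled counts added, and Dag1 and the transmembrane collagens counted with the integrins. The sums without Col3a1 and Col12a1, without Col4a1 and Col4a2 and without Itgb1 were added after seeing the data. The ratios were run on simulated data made from the P180 and GFP libraries, with counting error alone. Among 11468 genes, 200 drawn from the better-counted ones were raised 4-fold, and 100% of them passed the 2-fold line. This setting makes that nearly certain. It checks the calculation only, not genes without a count in 1 library or the effect of amplified copies. Promoter windows are from RefSeq (GRCr8), matched by symbol. Python 3.11.15, numpy 2.4.6, pandas 2.3.3, scipy 1.17.1, R 4.3.3 and edgeR 4.0.16 (TMM factors only) were used.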

Additional observations from a re-analysis of the deposited data

How the results depend on the processing

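No paired analysis was possible because the columns used hold 1 library per group, and no replicate could be left out. The shares of members, of secreted matrix genes and of integrins that were at least 2-fold higher stayed within their main intervals under the other settings tried except 1, the 4-fold threshold, at which the share of members was 58.5% instead of 73.6% (30.1% of all genes). The difference between secreted matrix and integrins was -6.35 percentage points and turned to 15.0 among well-counted genes, where only 5 integrins are left. Counts of higher members followed the filter, with 39 in the main setting, 20 of 31 with counts in both libraries (25.6% of all genes), 16 of 22 well-counted ones and 48 of 69 without the filter. Over all genes 4652 were higher in the main setting and 2309 with counts in both libraries. Total counts without mitochondrial genes and the tag row moved every log2 ratio by -0.24. Across the alternative scalings 3 calls changed: Fn1 and Sparcl1 left the higher side and Itga6 joined the lower side. Thinning moved Fn1 alone, and no named member at least 2-fold higher or lower changed sign under any of these settings, while Itgb5, whose interval spans 0, did under 1. Low counts limit the 44 members under 10 counts, whose ratios are not read here. The GFP pull-down had more counts over fewer genes, and its part in the ratios with few or no counts in 1 library was not tested.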
